A study of Caenorhabditis elegans with 22 samples.

Results

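The 6 libraries described here came from whole adult Caenorhabditis elegans kept on NGM agar with 100 nM rotenone and collected 5 days or 1 day after L4, the last larval stage, with 3 libraries at each age. They were chosen by their labelled treatment and age and make up 6 of the 22 libraries of the series. The other 16 were worms on rotenone at days 10 and 20 and worms on control plates, which held the solvent DMSO, at days 1, 5, 10 and 20. The labels give no strain and no genotype, state total RNA of the whole animal as the material, and do not say whether replicates came from separate cultures. Any p-value below thus reflects how far the particular libraries in the fit scatter, and that scatter could be technical. In the main fit the spread of a gene was estimated from all 22 libraries, not only from these 6. Every gene of the deposited count table except 5 ribosomal RNA genes entered the comparison, 45456 in all, of which 16827 had enough counts to be tested. Many of these genes passed the filter on low counts only because 1 age had the reads.

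Rotenone is a plant compound that blocks complex I, the entry point of electrons from NADH into the mitochondrial respiratory chain. A C. elegans hermaphrodite makes its sperm at the end of larval life and then only oocytes, feeds them with yolk made in the intestine, and lays eggs over the first days of adulthood. Its epidermis secretes a cuticle of collagens that is rebuilt at each larval moult and thickened in the young adult. In RNA of whole animals, fewer cells of a type and less RNA per cell cannot be told apart.

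Counts outside ribosomal RNA genes ran from 25747071 to 63741521 per library at day 5 and from 26833295 to 56580625 at day 1. Within an age, log2 CPM, counts scaled to a common library total, correlated at 0.9918 to 0.9948 between libraries. The first principal component over the 12 libraries of days 1 and 5 (both treatments) held 79.7% of the variance, with rotenone day 5 libraries at 72.5 to 81.2 and rotenone day 1 libraries at -81.2 to -76.9. Rotenone day 5 replicate 2 had 17.618% of its counts on ribosomal RNA genes, against 0.655% to 1.919% in the other 5 libraries of the comparison. Defining markers of every tissue checked had counts, with 32 of 34 present in all 6 libraries; the exceptions were sperm genes.

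Between day 1 and day 5 on rotenone most of the transcriptome moved. Of the 16827 genes tested, 10585 differed at an adjusted p under 0.05 by edgeR's quasi-likelihood test, which is 62.9%. At day 5, 4752 genes were higher (28.2%) and 5833 were lower (34.7%). With a trend over transcript length removed, the balance turned to 5899 higher and 5228 lower. The large changes were mostly falls: 3372 called genes were at least 2-fold lower at day 5 and 1123 at least 2-fold higher, and at 8-fold the counts were 764 and 161. CPM did not overlap between the ages for 71.8% of all tested genes. With shares this high, a count of called members says little by itself, so each list below is read against these percentages and against the median log2 fold change of all tested genes, which was -0.10.

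Cuticle collagens had the lowest list median of the structural genes. Of 178 collagen genes in the table, 154 were tested, and at day 5 106 were lower and 16 higher, with a median log2 fold change of -1.76. That ranking was lost with the trend over transcript length removed. Medians were then -1.51 for collagens, -1.52 for body wall muscle and -1.7 for pharyngeal muscle. The summed level of collagens at day 5 was 6702, 5631 and 5817 CPM, against 30699, 35169.8 and 34514 CPM at day 1. The adult-specific collagen col-19 (ZK1193.1, WBcel235 chrX:421707-422691) had 92.8, 84.6 and 89.9 CPM at day 5, against 1773, 2023 and 1963 CPM at day 1, so that its log2 fold change was -4.43 ± 0.14 (SE) at an adjusted p of 1.5e-14. No day 5 library came within an order of magnitude of the lowest day 1 library.

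Among called genes averaging at least 50 CPM at their higher age without overlap between the ages, col-129 (M18.1, chrIV:12108734-12110439) fell most. It had 1.22, 1.95 and 2.6 CPM at day 5, against 499, 605 and 567 CPM at day 1. That is 304-fold lower at day 5 (log2 fold change -8.25 ± 0.42, adjusted p = 5.6e-12). By the same rule, 11 of the 12 largest falls were collagens, among them bli-6 (-7.57), col-139 (-7.16), col-81 (-6.64), col-93 (-6.0), col-124 (-5.35) and col-20 (-5.14). The other was grd-3, a hedgehog-related protein of the groundhog family, at -4.72. The 2 collagens with the most CPM over the 6 libraries fell less: col-122 had 993, 853 and 933 CPM at day 5, against 2907, 3423 and 3431 CPM at day 1 (-1.81 ± 0.12), and col-119 fell by 2.49 on the log2 scale.

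A small group of collagens did the opposite. The strongest was col-183 (F02D10.1, chrX:13466643-13467764), with 16.4, 16.4 and 16.6 CPM at day 5, against 0.0349, 0.0688 and 0 CPM at day 1. Its log2 fold change was 8.52 ± 0.27 (adjusted p = 1.9e-14), on a day 1 level of a few reads. The ages did not overlap.

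**Figure D1:**
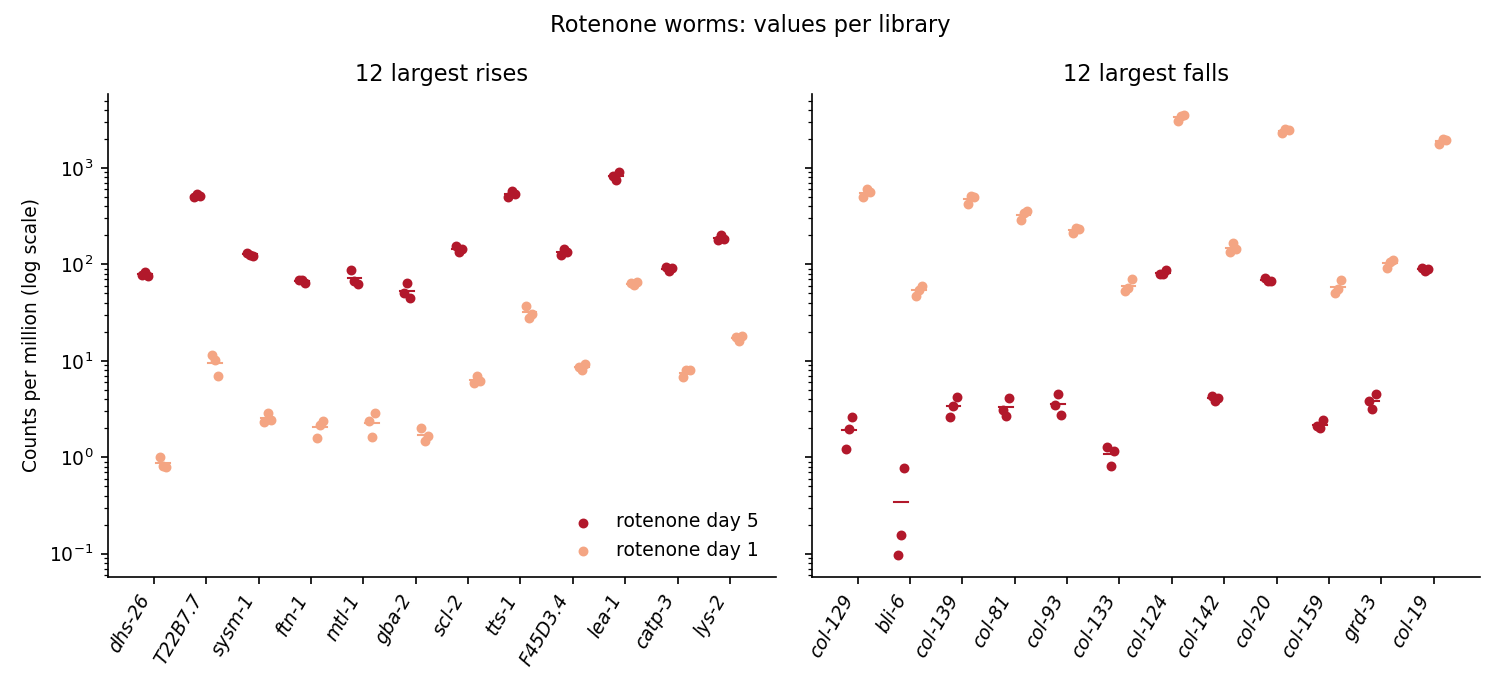
CPM (log axis) in each rotenone library for the 12 genes with the largest rises and the 12 with the largest falls at day 5, among called genes averaging at least 50 CPM at their higher age without overlap, day 5 in dark red and day 1 in light red, with a line at the mean of 3 libraries. Groups are separate for all 24 genes because the rule required it. Of the 12 falls 11 are collagens, with col-129 at 1.22 to 2.6 CPM at day 5 and 499 to 605 CPM at day 1.

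Other genes of the epidermal surface fell too, but less. Of 51 tested genes for moulting and the apical matrix, 27 were lower at day 5 and 5 higher (median -0.81), and noah-1, an apical matrix protein, had 29.8, 19.6 and 18.3 CPM at day 5, against 82.2, 75.9 and 60.6 CPM at day 1. The 5 risers were all cuticlin-family genes, cut-3, cut-6, cutl-7, cutl-14 and cutl-23, with log2 fold changes of 0.61 to 1.4. They are named because they are few. The family did not rise as a whole, since the largest fall of the list was also a cuticlin-like gene, cutl-9. It had 0.618, 0.274 and 0.35 CPM at day 5, against 3.73, 4.42 and 2.88 CPM at day 1 (-3.0 ± 0.25). Hedgehog-related genes, a nematode-expanded family expressed mainly in epidermis, had 23 of 48 lower and 8 higher (median -0.60, or -0.39 with the trend over transcript length removed). The ranges inside that list were wide: grd-5 fell by 3.28 and grl-17 rose by 1.72 on the log2 scale.

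Most muscle genes fell. In body wall muscle, 28 of 31 genes were lower at day 5 and none higher, with a median of -1.63. The myosin heavy chain unc-54 had 498, 397 and 519 CPM at day 5, against 1499.6, 1424 and 1572 CPM at day 1 (log2 fold change -1.67 ± 0.28, adjusted p = 4e-05). Tropomyosin lev-11 had 271, 238 and 249 CPM at day 5, against 1074, 1077 and 1131 CPM at day 1 (-2.11 ± 0.08), and the troponin T gene tnt-2 fell most, by 2.48. The 3 genes that were not called were the calcium channel egl-19 (-0.47), the ryanodine receptor unc-68 (-0.35) and the myosin chaperone unc-45 (0.39).

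Pharyngeal muscle followed, with 6 of 6 genes lower (median -1.56), including the pharynx myosins myo-1 (-1.82) and myo-2 (-1.57). Basement membrane genes, which encode the sheet between tissues, had 12 of 15 lower and none higher (median -1.49). The collagen IV chain let-2 had 248, 246 and 239 CPM at day 5, against 472, 488 and 502 CPM at day 1, and ost-1, the SPARC homologue, fell by 1.62. Fibulin fbl-1 had the largest fall of the list at 2.43.

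Reproductive genes split by cell type. Sperm genes had the lowest median of the lists. Of 88 members with a row 61 were tested, 54 were lower at day 5 and 1 higher, and the median log2 fold change was -5.56. Among them 18 genes were at 0 in all 3 day 5 libraries, so fitted values there have no fixed size. With those genes set to the bound that 3 counts per library allow, the median was -3.53. A member could pass the filter on low counts through its day 1 reads alone, and could then hardly come out higher. The count of lower members is thus partly built in. The largest fall was that of ssq-2 (T28H11.5, chrIV:4996142-4997559), a sperm-specific gene, with 0, 0 and 0 CPM at day 5, against 10, 12.5 and 11.2 CPM at day 1, where 3 counts per library would be 0.0942 CPM at day 5. Major sperm protein genes are near-identical copies whose reads the counting may have split, so single values of that family are uncertain.

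The 1 sperm-list gene that was called higher was spe-44, a transcription factor that starts the sperm programme. It had 25.2, 27.1 and 27.8 CPM at day 5, against 21.8, 21.5 and 24.4 CPM at day 1, a log2 fold change of 0.24 ± 0.10 with an adjusted p of 0.036. Without rotenone day 5 replicate 2 the adjusted p was 0.081, without day 5 replicate 3 it was 0.19, without day 1 replicate 1 it was 0.1, and without day 1 replicate 2 it was 0.14.

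Oocyte and germline genes rose together by a smaller amount. Of 35 oocyte and eggshell genes 30 were higher at day 5 and none lower (median 0.50). The eggshell proteoglycan cpg-2 had 4669.6, 4176 and 4567 CPM at day 5, against 2403, 2342 and 2477 CPM at day 1 (log2 fold change 0.89 ± 0.15, adjusted p = 3.6e-05). The chitin-binding eggshell protein cbd-1 had 4108, 3866 and 5197 CPM at day 5, against 2704, 2882 and 3013 CPM at day 1 (0.62 ± 0.20, adjusted p = 0.011; 0.092 without day 5 replicate 3). Day 5 libraries lay above all day 1 libraries for both.

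The largest rise of that list was lin-41, a regulator of oocyte growth, with 469, 435 and 579 CPM at day 5, against 198, 183 and 191 CPM at day 1. Its log2 fold change was 1.37 ± 0.47 with an adjusted p of 0.017, which became 0.058 without day 5 replicate 3. The 3 day 5 libraries lay above the 3 day 1 libraries.

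Meiosis genes had 27 of 34 higher and none lower (median 0.53), led by the cohesin rec-8, with 150.2, 169 and 193 CPM at day 5, against 73.5, 71.1 and 75.7 CPM at day 1. DNA replication and cell division genes had 31 of 34 higher and none lower (median 0.50). In that list rnr-2, a ribonucleotide reductase subunit, rose by 0.53 ± 0.12 and the origin recognition gene orc-1 by 0.85 ± 0.11. P granule and small RNA genes had 15 of 20 higher and none lower (median 0.65); meg-4, which helps assemble P granules, rose by 1.16, while car-1, an RNA-binding protein of germ granules, overlapped between the ages (-0.07 ± 0.12).

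Genes switched on in the embryo were mixed. Of 47 tested, 27 were lower at day 5 and 8 higher (median -0.64), or 20 and 12 without the trend over transcript length (median -0.37). The T-box gene tbx-38 had 5.19, 5.08 and 5.01 CPM at day 5, against 1.57, 1.86 and 1.03 CPM at day 1 (1.74 ± 0.16). The endoderm-specifying factor end-1 had 0.13, 0.0782 and 0.272 CPM at day 5, against 1.15, 1.65 and 1.41 CPM at day 1 (-3.21 ± 0.44). Summed over the 5 embryo markers, levels were 11.9 to 13.9 CPM at day 5 and 13.2 to 14.7 CPM at day 1.

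**Figure D2:**
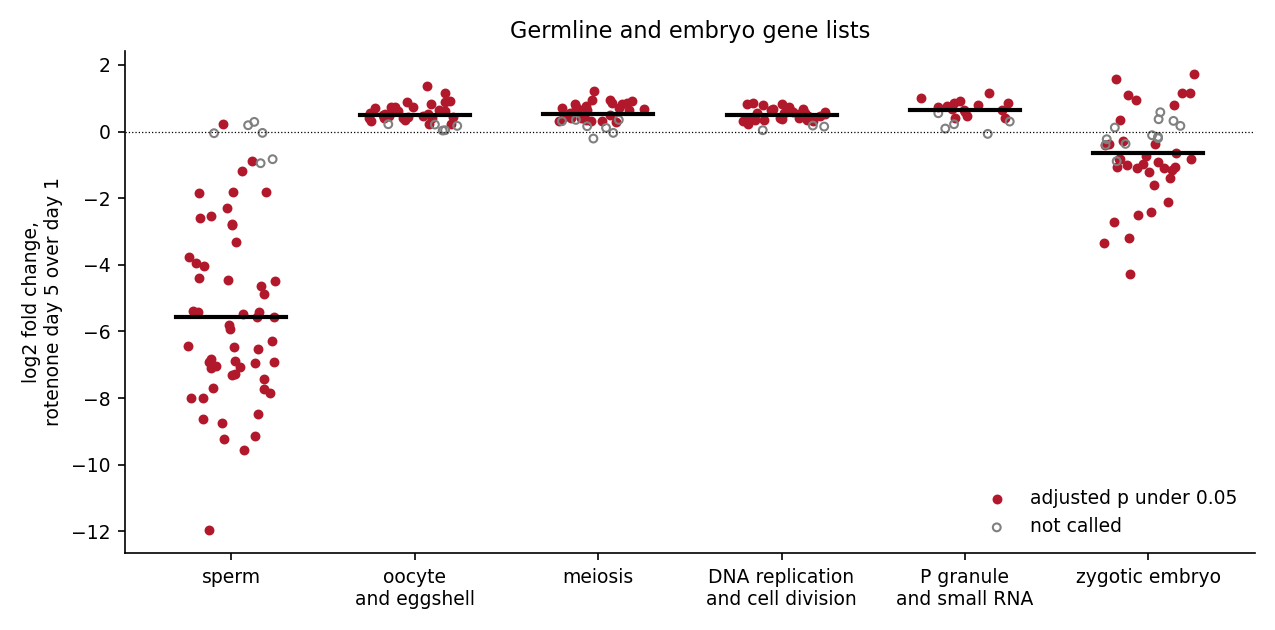
Log2 fold change of rotenone day 5 over day 1 (vertical axis) for each tested gene of 6 germline and embryo lists, filled where the adjusted p is under 0.05, with a bar at each list's median. Sperm genes have a median of -5.56, and oocyte, meiosis, replication and P granule genes sit between 0.50 and 0.65.

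Yolk genes did not move as a family. The vitellogenins carry yolk protein from intestine to oocytes, and their copies share sequence, so single values are uncertain. By CPM vit-6 had 17889, 18321 and 26669 at day 5, against 19113, 18135 and 23250.0 at day 1, and the ages overlapped (log2 fold change 0.06 ± 0.35, adjusted p = 0.9). In contrast vit-5 had 3717, 3717 and 5377 CPM at day 5, against 1471, 1358 and 1662 CPM at day 1 (1.51 ± 0.35, adjusted p = 0.001).

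Falling vitellogenins were vit-1, with 558, 567 and 722 CPM at day 5, against 1800.4, 1979 and 2043 CPM at day 1 (-1.66 ± 0.23), and vit-3 (-1.11 ± 0.23). The changes of vit-2 (-0.36) and vit-4 (-0.38) missed the threshold. With the trend over transcript length removed, 4 of the 6 were called lower. The family summed to 2.8%, 2.95% and 3.9% of the counts over tested genes at day 5, against 3.43%, 3.22% and 3.85% at day 1.

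Ribosomal protein genes had the most uniform fall of the translation genes. Of 74 tested cytosolic members, 73 were lower at day 5 (median -0.80), and the other, rpl-8, had -0.47 with an adjusted p of 0.051. For the small subunit gene rps-8, day 5 libraries had 1747, 1657 and 1626 CPM, against 2545, 2804 and 3042 CPM at day 1 (-0.74 ± 0.10). The large subunit gene rpl-11.2 fell by 1.18 and rpl-3 by 0.36; the call of rpl-3 was lost without the length trend (adjusted p = 0.079) and without day 5 replicate 2 (0.11), day 1 replicate 2 (0.067) or day 1 replicate 3 (0.065).

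These genes are short, and fold changes in this comparison rose with transcript length: the median was -0.42 for the shortest 20% of genes (median exonic length 549 bases) and 0.33 for the longest 20% (3013 bases). Over 16560 genes, which share libraries and are not independent, Spearman's rho was 0.228. Once that trend was removed, the median of all genes moved by over 0.1, to 0.04, and 59 ribosomal protein genes were still lower with a median of -0.36. Translation factors were mostly not called, with 8 of 38 higher and 5 lower (median 0.07); 17 were higher without the length trend, 4 without rotenone day 5 replicate 3, 5 without day 1 replicate 2, and 14 without DMSO day 10 replicate 1. By CPM eef-1A.1, the elongation factor that brings tRNA to the ribosome, had 8362, 6670.4 and 7932 at day 5, against 7128, 8462 and 8106 at day 1, and its ages overlapped.

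Complex I, the target of rotenone, had 23 of 33 nuclear genes lower at day 5 and none higher, with a median of -0.43. Its core subunit gene gas-1 (K09A9.5, chrX:15586786-15590397) averaged 79.6 ± 8.28 CPM at day 5 and 129.9 ± 7.05 CPM at day 1 (SD, n = 3 each) without overlap (log2 fold change -0.71 ± 0.10, adjusted p = 1e-05). The accessory subunit ndub-7 fell most, with 59.4, 53.8 and 50.5 CPM at day 5, against 102, 101 and 102 CPM at day 1. For the NADH-binding subunit nuo-1 the ages overlapped and the change was -0.17 ± 0.13. This list depends on transcript length: without the length trend 12 genes were lower and the median was -0.12.

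Complexes II to V had 23 of 31 genes lower and none higher (median -0.48), or 16 lower and 2 higher without the length trend (median -0.19), while the ATP synthase subunit atp-1 had 1992, 1631 and 1866 CPM at day 5, against 1841, 1995 and 2122 CPM at day 1. The largest fall was that of cyc-2.2, a cytochrome c gene, at 0, 0.0391 and 0 CPM at day 5, against 3, 2.79 and 3.59 CPM at day 1. Of 7 tested mRNAs encoded in mitochondrial DNA, COX2, a subunit of cytochrome oxidase, was lower (-0.69 ± 0.21); leaving out day 5 replicate 3 gave 3 lower genes, leaving out day 1 replicate 2 gave 2, and leaving out DMSO day 10 replicate 1 gave 3. Mitochondrial ribosomal protein genes had 22 of 68 lower and 2 higher (median -0.09), a direction that turned to 5 lower and 28 higher (median 0.21) without the length trend.

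Tricarboxylic acid cycle genes had 8 of 14 lower and 2 higher (median -0.22, or -0.09 without the length trend). The citrate synthase gene cts-1 had 690.2, 598 and 662 CPM at day 5, against 766, 792 and 864 CPM at day 1 (-0.31 ± 0.12, adjusted p = 0.035; 0.13 without day 5 replicate 2 and 0.078 without day 1 replicate 3). The 2-oxoglutarate dehydrogenase gene ogdh-1 rose by 0.52 ± 0.21 (adjusted p = 0.039), a call lost when any of the 6 libraries was left out (adjusted p 0.057 to 0.14). Glycolysis genes had 6 of 18 lower and 2 higher; aldo-2 and enol-1, glycolytic enzymes, overlapped between the ages, and aldo-1, a second aldolase, had 49.5, 37.1 and 40.2 CPM at day 5, against 105, 121 and 127 CPM at day 1.

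Protein-folding stress genes gave no common direction. In the mitochondrial unfolded protein response, 3 of 13 genes were higher and 4 lower, against a background of 28.2% and 34.7%. The mitochondrial chaperone hsp-6 had 663, 600.1 and 707 CPM at day 5, against 494, 478 and 512 CPM at day 1; these did not overlap, yet the log2 fold change of 0.41 ± 0.21 missed the threshold (adjusted p = 0.1). The mitochondrial chaperonin hsp-60 was lower, with 393, 361 and 394 CPM at day 5, against 516, 514 and 558 CPM at day 1 (-0.47 ± 0.19, adjusted p = 0.035; 0.061 and 0.097 without day 5 replicate 1 or 2, and 0.056 and 0.067 without day 1 replicate 1 or 3).

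In that list the protease gene lonp-1 rose by 0.68 ± 0.20, and atfs-1, the pathway's transcription factor, by 0.35 ± 0.10. The homeodomain factor dve-1 fell by 0.98 ± 0.11. The 4 lower genes became 1 or 2 when day 5 replicate 2 or 3, or day 1 replicate 1 or 2, was left out, and 2 without the length trend.

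Cytosolic heat shock genes had 3 of 12 higher and 3 lower. The small heat shock gene hsp-16.2 had 0.878, 1.09 and 1.4 CPM at day 5, against 0.488, 0.155 and 0.192 CPM at day 1 (2.09 ± 0.36), and hsp-70 rose by 3.47 ± 0.28, both from a few reads and both with near-identical copies in the genome. The hsp-12 genes hsp-12.1, hsp-12.2 and hsp-12.3 fell by 1.60 to 2.14. In the endoplasmic reticulum, 7 of 18 genes were higher and 4 lower (4 higher without day 5 replicate 3): the stress sensor pek-1 rose by 0.88, the disulphide isomerase pdi-2 fell by 1.03, and the chaperone hsp-4 had 419.6, 459 and 495 CPM at day 5, against 439, 431 and 482 CPM at day 1, with full overlap.

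Antioxidant genes had 4 of 24 higher and 7 lower, with a median of -0.14 that turned to 0.19 without the length trend. The mitochondrial superoxide dismutase sod-3 had 3.53, 3.48 and 3.96 CPM at day 5, against 7.39, 6.47 and 7.02 CPM at day 1 (-0.93 ± 0.12). The catalase ctl-3 had 9.75, 7.5 and 8.04 CPM at day 5, against 2.41, 2.58 and 2.21 CPM at day 1 (1.81 ± 0.45). Catalase copies ctl-1 to ctl-3 lie side by side and are alike, so that value is uncertain. The glutathione transferase gst-4, a common reporter of oxidative stress, had 13.8, 18.2 and 16.4 CPM at day 5, against 27.2, 25 and 28.4 CPM at day 1, and daf-16, the FOXO factor of insulin signalling, overlapped between the ages (0.30 ± 0.13, adjusted p = 0.054).

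Hypoxia response genes had 7 of 10 lower and 1 higher. The higher one was sqrd-1, the sulphide quinone oxidoreductase, which rose by 1.05 ± 0.10. Among metal handling genes, 3 of 9 were higher and 2 lower (5 and 1 without the length trend): the ferritin gene ftn-1 (C54F6.14, chrV:7546468-7547579) had 69.5, 68.8 and 63.9 CPM at day 5, against 1.6, 2.15 and 2.37 CPM at day 1, the metallothionein mtl-1 had 86.6, 67.9 and 62.2 CPM at day 5, against 2.37, 1.62 and 2.85 CPM at day 1, and cdr-2 rose by 0.58. The second ferritin gene, ftn-2, fell by 0.43 ± 0.09, a call that was lost once the length trend was removed (-0.08, adjusted p = 0.49).

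Autophagy genes had 18 of 26 higher and 2 lower (median 0.48). The membrane protein atg-9 had 96, 86.7 and 106 CPM at day 5, against 34.2, 38.2 and 31.5 CPM at day 1 (1.47 ± 0.37, adjusted p = 0.0018), and the phosphoinositide-binding atg-18 rose by 0.50. The 2 that fell were epg-2 (-0.79) and hlh-30, the TFEB homologue (-0.61). Proteasome genes had 11 of 33 higher and 1 lower (median 0.03), and 18 higher without the length trend; without day 5 replicate 1, day 5 replicate 3 or day 1 replicate 1 the higher count was 6, 4 or 5.

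Immune and digestive genes were divided member by member. Lysozymes, which cut bacterial walls, had 7 of 13 higher and 4 lower (median 0.89). Of these lys-7 (C02A12.4, chrV:3481432-3482600) had 1166, 1200.1 and 1235 CPM at day 5, against 163, 145 and 188 CPM at day 1 (2.86 ± 0.11, adjusted p = 2e-13), and lys-2 had 178, 202 and 185 CPM at day 5, against 17.8, 16 and 18.1 CPM at day 1. In the other direction ilys-5, an invertebrate-type lysozyme, had 561, 588 and 508 CPM at day 5, against 1054, 1065 and 1177 CPM at day 1, and lys-5 fell by 4.49 ± 0.31.

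C-type lectins, sugar-binding secreted proteins, had 42 of 152 higher and 47 lower, shares close to the background of 28.2% and 34.7%; without the length trend 52 were higher and 43 lower. Within them clec-190 rose by 3.24 and clec-123 fell by 5.91, while clec-87 had 2529, 2389 and 2412 CPM at day 5, against 1611, 1719 and 1709 CPM at day 1. Saposin-like and thaumatin genes had 10 of 27 higher and 10 lower (14 and 10 without the length trend, median 0.52 in place of 0.0); spp-17 had 31.4, 31.5 and 28.7 CPM at day 5, against 181, 218 and 202 CPM at day 1. Epidermal antimicrobial peptides had 16 of 39 higher and 17 lower (17 and 14 without the length trend): the caenacin cnc-4 rose by 3.73 ± 0.26, and nlp-24 and fipr-21 fell by 3.21 and 2.61.

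Genes of intestinal identity and the lumen fell, with 13 of 16 lower and 1 higher (median -1.0). The microvillar actin act-5 (T25C8.2, chrIII:13604412-13606066) had 142, 104 and 104 CPM at day 5, against 372, 439 and 438 CPM at day 1 (-1.83 ± 0.16), although reads of near-identical actins may be shared. The sodium-proton exchanger nhx-2 fell by 1.95. The exception was ges-1, the gut esterase, with 32, 37.7 and 35.6 CPM at day 5, against 20.3, 19.2 and 21.2 CPM at day 1. Cathepsin proteases had 9 of 24 higher and 10 lower; the aspartyl protease asp-1 had 1019, 873 and 953 CPM at day 5, against 2022, 2243 and 2289 CPM at day 1.

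Lipid genes separated by enzyme class. All 5 called desaturase genes were higher, fat-1 to fat-5, with log2 fold changes of 0.47 to 1.15, and all 7 called elongase genes, elo-1, elo-2, elo-5, elo-6, elo-7, elo-8 and elo-9, were lower. The desaturase fat-2, which makes linoleic acid, had 1004, 1045 and 1009 CPM at day 5, against 442, 444 and 492 CPM at day 1 (1.15 ± 0.12). The palmitate elongase elo-2 had 74.8, 79.3 and 69.8 CPM at day 5, against 227, 214 and 223 CPM at day 1 (-1.57 ± 0.08). The stearoyl desaturase fat-6 (-0.19) and the elongases elo-3 and elo-4 were not called, and fat-7 was listed at 0 in all 22 libraries, so it gives no value.

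Fatty acid oxidation genes had 36 of 71 lower and 15 higher (median -0.26, or -0.40 without the length trend). The acyl-CoA dehydrogenase acdh-1, an early enzyme of the propionate shunt, had 512, 590.1 and 513 CPM at day 5, against 1351, 1265 and 1274 CPM at day 1 (-1.27 ± 0.11). The shunt gene hphd-1 had 248, 243 and 241 CPM at day 5, against 571, 581 and 599 CPM at day 1 (-1.26 ± 0.11). On the vitamin B12-dependent route for propionate, the mutase gene mmcm-1 rose by 0.70 ± 0.15. The propionate and vitamin B12 list had no common direction, with 3 of 11 genes higher and 3 lower (median 0.03, or -0.04 without the length trend). The peroxisomal oxidase acox-1.2 rose by 1.98. Lysosomal lipases had 3 of 7 tested genes higher and 1 lower (median 0.50). The risers were lipl-1, lipl-2 and lipl-3, by 1.35 to 4.43, and the lower gene was lipl-7. Summed over the list, levels overlapped, with 237, 220.1 and 228 CPM at day 5, against 213, 224 and 247 CPM at day 1.

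Detoxification families leaned in different directions. Cytochrome P450 genes had 32 of 74 higher and 18 lower (median 0.14), and cyp-35B1 had 33.9, 37.2 and 34.3 CPM at day 5, against 1.36, 1.67 and 1.28 CPM at day 1 (4.59 ± 0.18). Glutathione S-transferases had 9 of 48 higher and 25 lower (median -0.55), or 14 and 23 without the length trend (median -0.27). UDP-glucuronosyltransferases had 13 of 66 higher and 31 lower (median -0.37). Of the ABC exporters 8 of 23 were higher and 7 lower; mrp-4 and mrp-7 had the most CPM and rose by 1.02 ± 0.28 and 1.36 ± 0.24. Without the length trend that list had 7 higher and 12 lower.

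Neuronal genes fell by moderate amounts. Neuropeptide genes had 63 of 93 lower and 5 higher (median -0.70), and 37 lower without the length trend (median -0.32). The intestinal neuropeptide nlp-40 overlapped between the ages (-0.15 ± 0.11), and nlp-36 fell by 0.87. Of the 5 that rose, nlp-39 moved most, with 11, 11.1 and 10.3 CPM at day 5, against 0.0697, 0.0688 and 0.0321 CPM at day 1 (7.45 ± 0.32). Synapse and transmitter genes had 17 of 28 lower and 2 higher (median -0.49); the synaptobrevin snb-1 was 1 of the 2 higher, at 0.40 ± 0.14, and its adjusted p of 0.016 became 0.1 without day 5 replicate 1 or day 1 replicate 3.

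Insulin-like peptides had 17 of 36 lower and 7 higher (median -0.81), or 14 and 9 without the length trend (median -0.41). The strongest rise was that of ins-19 (T10D4.13, chrII:3126037-3126441), with 46.1, 52.1 and 48.1 CPM at day 5, against 0.906, 0.653 and 0.513 CPM at day 1 (6.15 ± 0.22, adjusted p = 8.7e-14). The agonist daf-28 had 2.86, 1.84 and 2.41 CPM at day 5, against 8.44, 8.39 and 8.21 CPM at day 1. Genes named dod, downstream of daf-16, had 6 of 9 higher and 2 lower (median 0.97), with dod-3, dod-22, dod-23 and dod-24 each above 2.6.

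Among large families, 253 of 1629 chemoreceptor genes could be tested, with 36 higher and 40 lower (46 and 33 without the length trend). The receptor gene sri-40 had 0.276, 0.156 and 0.233 CPM at day 5, against 30.1, 28.4 and 25.4 CPM at day 1 (-6.87 ± 0.21). Nuclear hormone receptors had 30 of 218 higher and 80 lower (44 and 75 without the length trend); nhr-114, expressed in the intestine, had 25.3, 20.4 and 17.2 CPM at day 5, against 256, 250.0 and 244 CPM at day 1 (-3.57 ± 0.12), and nhr-49, a regulator of fat metabolism, rose by 0.31. Homeobox ceh genes had 31 of 55 lower and 12 higher (median -0.78), from ceh-36, a factor of sensory neurons, at -3.97 to ceh-91 at 1.70. Their summed level went the other way, with 1110.2, 1157 and 1219 CPM at day 5, against 852, 829 and 818 CPM at day 1. F-box genes had 69 of 333 higher and 117 lower, and BTB, MATH and Skp1-related genes 29 of 114 higher and 39 lower; both medians, -0.16 and -0.13, turned positive (0.01 and 0.17) without the length trend. Histone genes had 1 of 35 higher, the linker histone hil-1 at 2.63 ± 0.13, and 9 lower, led by the H1 gene his-24 at -2.63 ± 0.18; without the length trend the balance turned to 13 higher and 7 lower, and the median was 0.40 in place of 0.03.

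**Figure D3:**
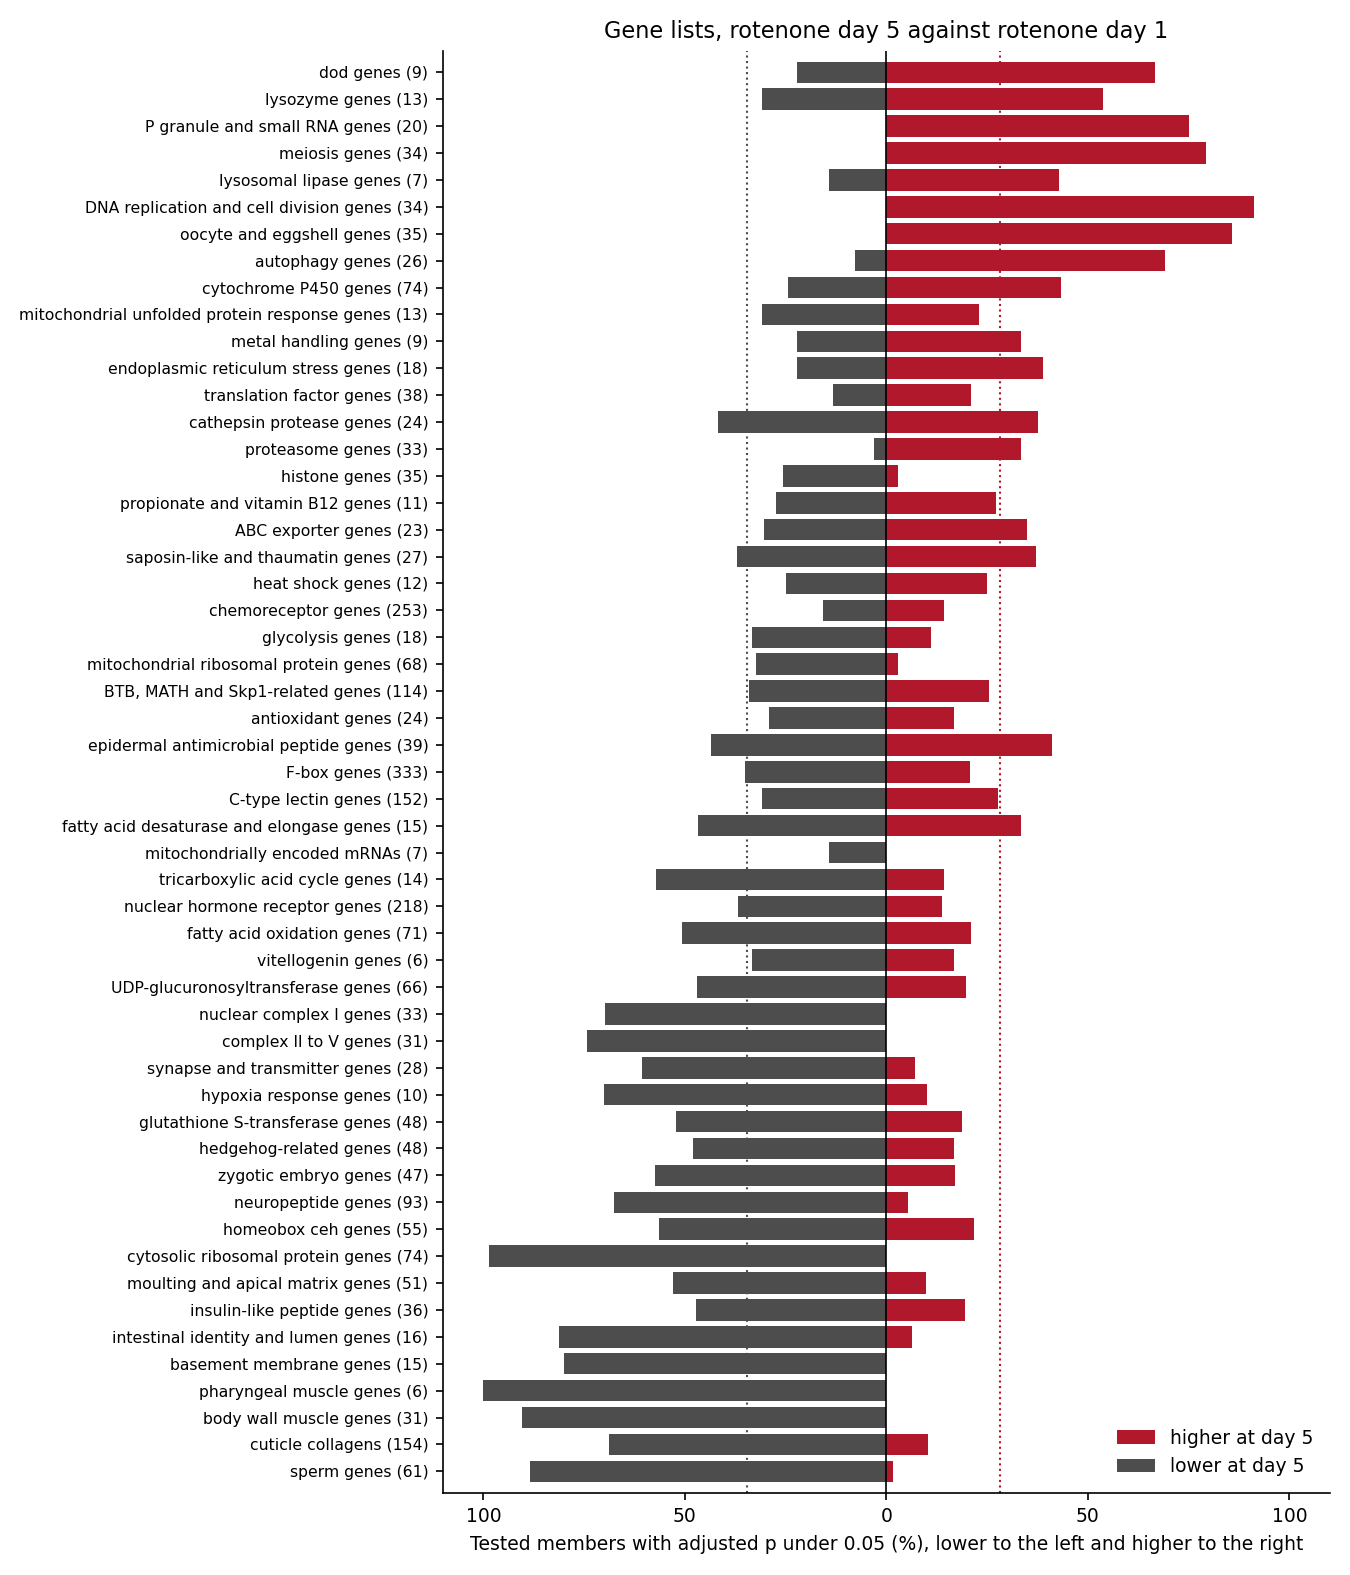
Percent of the tested members of each of 53 gene lists (number tested in brackets) that were higher (red, right) or lower (grey, left) at day 5 than at day 1 on rotenone, ordered by median log2 fold change. Dotted lines mark the same shares among all tested genes, 28.2% higher and 34.7% lower; sperm, collagen, muscle and ribosomal protein lists stand to the left, and replication, oocyte and meiosis lists to the right.

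The largest rises among called genes averaging at least 50 CPM at their higher age without overlap came from single genes of many families. First was dhs-26 (ZK816.5, chrX:3360722-3362493), a short-chain dehydrogenase, with 78.2, 82.7 and 76.2 CPM at day 5, against 1.01, 0.808 and 0.801 CPM at day 1, which is 91.3-fold higher (log2 fold change 6.51 ± 0.14, adjusted p = 6.3e-17). T22B7.7 (chrX:5651865-5654074) had 501, 541 and 509 CPM at day 5, against 11.4, 10.2 and 6.96 CPM at day 1. Then sysm-1 (T24B8.5, chrII:9082626-9083193), a known target of the p38 immune pathway, had 133, 126 and 123 CPM at day 5, against 2.34, 2.85 and 2.44 CPM at day 1. No overlap between the ages was a condition of this ranking, so the separation of these 3 genes follows from it.

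Others of the 12 were ftn-1, mtl-1 and lys-2 from the lists above, the glucocerebrosidase homologue gba-2 (4.98), the secreted SCP-like protein scl-2 (4.51), the long noncoding RNA tts-1 (4.10), F45D3.4 (3.97), and catp-3, a cation-transporting ATPase (3.57). For lea-1 (K08H10.1, chrV:10011923-10028168), a late embryogenesis abundant protein that protects against drying, libraries had 821, 754 and 915 CPM at day 5, against 64.2, 60.9 and 65.2 CPM at day 1 (3.71 ± 0.41).

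Chromosomes differed in the balance of changes. On X, 15.2% of 2424 tested genes were higher at day 5 and 46.4% lower, with a median of -0.43. On chromosome III 35.7% of 2516 were higher and 26.4% lower (median 0.10), and the other autosomes lay between, with medians from -0.13 to 0.05. Without the length trend the median of X was -0.34 and that of the autosomes 0.02 to 0.23, and on DMSO the same comparison of ages gave X a median of -0.39.

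Most of these changes were also called between the same ages on DMSO, in 6 separate libraries. At day 5 on DMSO 9322 genes had changed (55.4%), 3829 higher (22.8%) and 5493 lower (32.6%). Of the genes higher at day 5 on rotenone 67.1% were also higher on DMSO, which is 83.3% of the DMSO list, and of the genes lower on rotenone 82.7% were also lower on DMSO, or 87.8% of that list. Called in opposite directions were 1 gene higher on rotenone and lower on DMSO and 11 the other way round. Across genes, which are not independent, the 2 sets of fold changes correlated at 0.891 (Pearson).

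Some list medians had the same sign in both treatments. On rotenone and on DMSO they were -1.76 and -1.58 for collagens, -1.63 and -1.93 for body wall muscle, and -0.80 and -0.66 for cytosolic ribosomal proteins. For complex I they were -0.43 and -0.38, and for oocyte genes 0.50 and 0.41. Lists with medians near 0 could differ in sign. Examples were the mitochondrial unfolded protein response (0.13 and -0.07), C-type lectins (-0.16 and 0.11) and chemoreceptors (-0.02 and 0.21). Neuropeptides had 63 lower on rotenone and 36 on DMSO, and zygotic embryo genes 27 and 21. With the length trend removed, the rotenone counts were 37 and 20, near the DMSO counts, which still included that trend. P granule and small RNA genes had 15 higher on rotenone and 7 on DMSO (medians 0.65 and 0.27), and proteasome genes 11 and 1. The proteasome medians were alike, 0.03 on rotenone and 0.06 on DMSO, and the 11 shifted with the libraries used, as given above. The zygotic embryo, P granule and proteasome lists had no member called in the test of the difference between the ageing changes. Nor did any member of the neuropeptide, sperm, oocyte, muscle, ribosomal protein or complex I lists pass that test. Only 0.357% of all tested genes passed it, so an absence of calls in lists of this size says little about them.

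**Figure D4:**
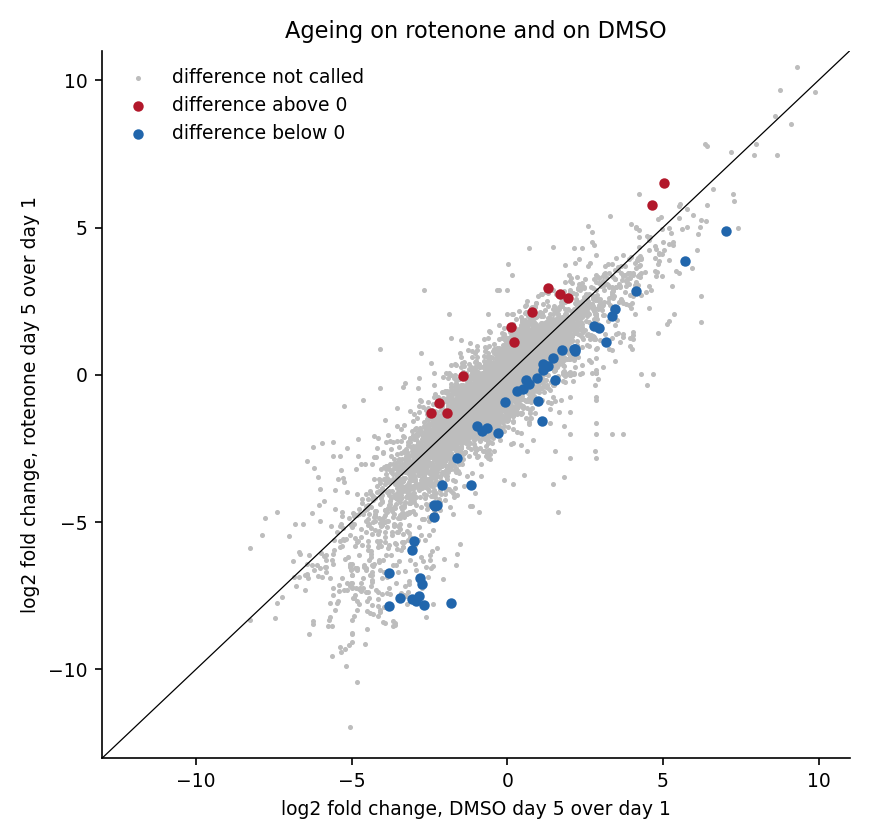
Log2 fold change of day 5 over day 1 on rotenone (vertical) against that on DMSO (horizontal) for 16827 genes, with the line of equality. Coloured are the 60 genes whose difference passed the test, 12 above 0 in red and 48 below 0 in blue.

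The ageing change on rotenone differed from that on DMSO for 60 genes, or 0.357% of those tested (edgeR interaction, adjusted p under 0.05), 12 with a higher and 48 with a lower change on rotenone. This count depends on the fit. It was 1053 with only the 4 groups concerned, 837 without DMSO day 10 replicate 1 (582 higher and 255 lower), and 170 by DESeq2; the 60 genes were all among the 1053 and among the 837. Leaving out DMSO day 5 replicate 1 or 2 gave 36 or 31. Across genes the difference rose with transcript length (Spearman 0.428), and the fold change of rotenone over DMSO fell with length at day 1 (-0.537) and hardly at day 5 (-0.045); with the length trend removed 61 genes passed, 51 of them the same.

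Collagens led the lower group: 12 of the 48 are on the collagen list, and rol-1, a further cuticle collagen, had the largest difference of genes at 10 CPM or more. It had 0.0325, 0.234 and 0.272 CPM on rotenone at day 5 and 29, 31.6 and 34.3 CPM on rotenone at day 1, beside 2.84, 3.57 and 3.14 CPM on DMSO at day 5 and 21.4, 18.9 and 20.5 CPM on DMSO at day 1. The log2 difference was -5.16 (adjusted p = 2.1e-06). The same shape held for col-49 (-4.76), col-175 (-4.68), col-63 (-4.36), bli-6 (-4.14), col-138 (-4.09) and col-88 (-4.03). Over the 12 collagens, the highest rotenone day 5 library lay below the lowest DMSO day 5 library for every gene, with mean levels of 0.146 to 4.69 CPM on rotenone and 0.928 to 9.57 CPM on DMSO at day 5. These 12 were picked by the called difference in the same libraries, so this separation is partly built in and adds no separate support.

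At day 1 the means of these 12 collagens were 6 to 62.3 CPM on rotenone and 4.64 to 42.8 CPM on DMSO. Summed sperm markers were 0.703 to 1.17 CPM on rotenone and 1.03 to 1.63 CPM on DMSO at day 5, and embryo markers 11.9 to 13.9 CPM on rotenone and 18.9 to 20.4 CPM on DMSO at day 5; their part in the collagen result was not tested. The difference of col-88 was not called without rotenone day 5 replicate 1 or 2 (adjusted p = 0.15 and 0.069) or DMSO day 5 replicate 1 or 2 (0.07 and 0.085). Y47D7A.15 had a difference of -2.94 that was called by edgeR but not by DESeq2 (adjusted p = 0.15), and it was lost when any library other than rotenone day 5 replicate 3 or rotenone day 1 replicate 1 was left out (0.058 to 0.17).

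A further 15 of the 48 were called higher at day 5 in both treatments, with a smaller rise on rotenone. The lysozyme lys-7 had a mean of 1200.4 CPM at day 5 and 166 CPM at day 1 on rotenone, beside 1670.4 CPM at day 5 and 95.3 CPM at day 1 on DMSO, a difference of -1.27 (adjusted p = 9.5e-05), and dod-3 had a difference of -1.86. F22B5.4, on the hypoxia list, fell on rotenone to 0.211, 0.274 and 0.155 CPM at day 5, against 2.72, 2.32 and 3.69 CPM at day 1; on DMSO it had 0.338, 0.302 and 0.364 CPM at day 5 and 0.782, 0.826 and 0.581 CPM at day 1.

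Among genes with a higher change on rotenone, dod-23 (F49E12.2, chrII:8398161-8399164) stood first. It had 498, 551 and 524 CPM at day 5 and 69.9, 66.2 and 66.9 CPM at day 1 on rotenone, beside 187, 194 and 174 CPM at day 5 and 76.8, 70.7 and 78.2 CPM at day 1 on DMSO, a log2 difference of 1.65 (adjusted p = 4.3e-06). Rotenone over DMSO was -0.15 at day 1 (adjusted p = 0.41) and 1.5 at day 5 (adjusted p = 2.9e-07). For dhs-26 and T22B7.7 the call between treatments was at day 1, with log2 values of -1.25 and -1.09: day 5 means were 79 and 66.7 CPM for dhs-26 on rotenone and DMSO and 517 and 506 CPM for T22B7.7, and day 1 means were 0.874 and 2.04 CPM and 9.5 and 20.3 CPM.

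The cathepsin B gene cpr-5 fell with age in both, to 92.1, 84.1 and 80.6 CPM at day 5 on rotenone, against 193, 218 and 229 CPM at day 1, and to 48.1, 45.9 and 45.8 CPM at day 5 on DMSO, against 243, 254 and 264 CPM at day 1 (difference 1.13, adjusted p = 2.9e-05). The P450 gene cyp-35A3 (1.32), C30G12.2 (1.03) and the lectin clec-66 (0.88) had larger changes with age on rotenone, and F30H5.3 (1.36) had overlapping values between the ages on rotenone and fell by 1.41 on DMSO. These calls are fragile. That of C30G12.2 was lost when any library but DMSO day 1 replicate 3 was left out (adjusted p 0.067 to 0.14) and that of clec-66 when any but DMSO day 5 replicate 1 was (0.061 to 0.12). The call of cyp-35A3 was lost without rotenone day 5 replicate 2 or 3, rotenone day 1 replicate 1 or 2, DMSO day 5 replicate 1 or 2, or DMSO day 1 replicate 1 or 3 (0.052 to 0.11), and that of F30H5.3 without the length trend (0.11).

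**Figure D5:**
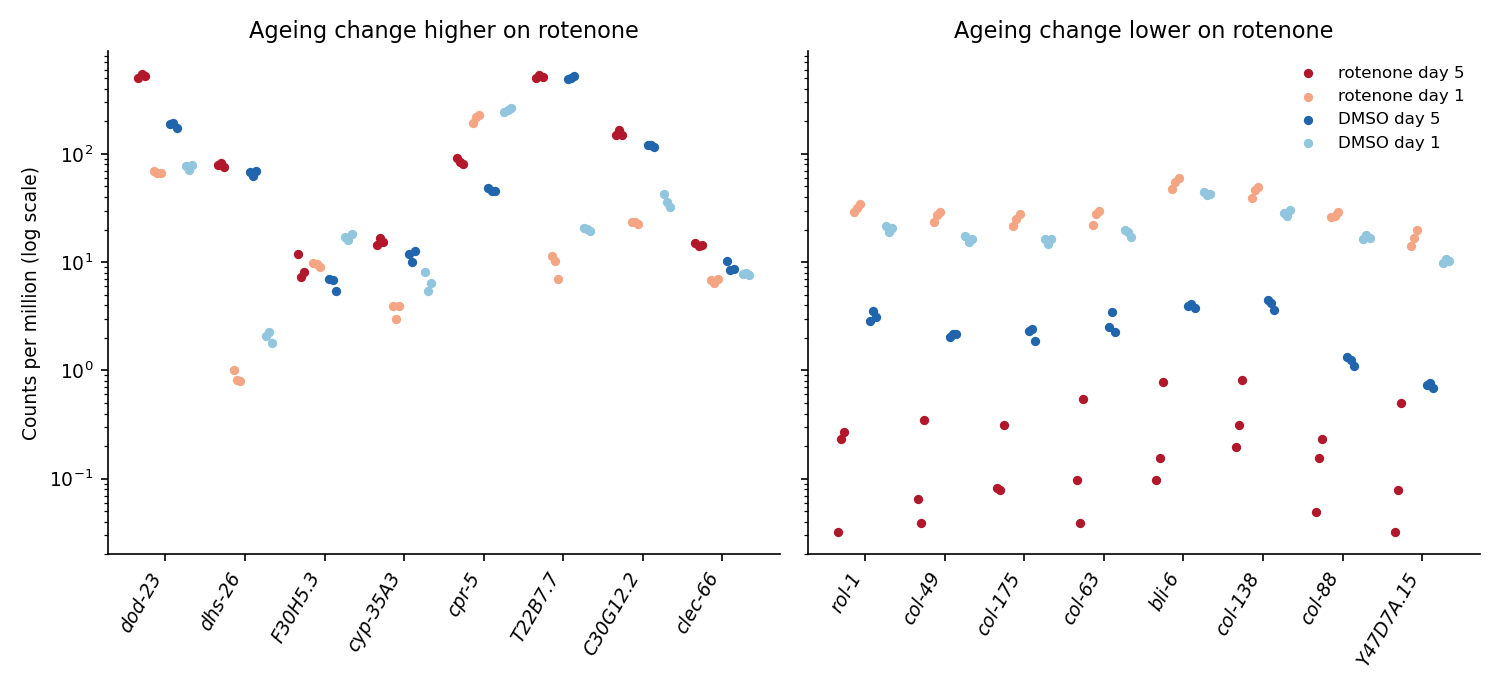
CPM (log axis) per library in 4 groups for the 8 genes with the largest higher and the 8 with the largest lower ageing change on rotenone than on DMSO, among called genes averaging at least 10 CPM in their highest group. In the right panel rotenone day 5 libraries lie at 0.0325 to 0.816 CPM, and for each gene below all of its DMSO day 5 libraries. The genes were picked by the difference in these same libraries, so this separation is partly built in. The gene dod-23 had 498 to 551 CPM on rotenone at day 5 and 174 to 194 CPM on DMSO at day 5.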

How the data were processed

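RNA of whole worms was sequenced after TruSeq preparation from 2 μg of total RNA, a kit that does not mark strand, so overlapping and antisense genes cannot be told apart. The authors deposited raw counts per gene, per the labels. TopHat 1.4.1 and HTSeq, and the WBcel235 build, are listed in the submitters' processing notes with no role given. A deposited RPKM table was not used. The 5 ribosomal RNA (rrn-) genes were left out of library sizes and tests.

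Counts were tested with edgeR 4.0.16 (R 4.3.3, limma 3.58.1): TMM scaling, filterByExpr, 1 mean for each of 8 treatment and age groups over all 22 libraries, no replicate block, and Benjamini-Hochberg adjustment over 16827 genes, called under 0.05. The difference between treatments was the interaction contrast. Total counts were 25769159 to 69961601 per library. CPM are counts scaled by the TMM-adjusted library total and were compared between libraries only, not between genes. Floors of 3 counts cover counting error only. The test of rotenone day 5 against day 1 was tried on simulated counts with far fewer changed genes than these data. The interaction contrast was not simulated.

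Genes named are the 12 largest called changes per direction at 50 CPM or more without overlap, the 2 most abundant and the largest called changes of each list (at least 20 counts), the 8 largest differences per direction at 10 CPM or more, and single genes of known interest; others named were chosen after their values were seen. Members and lists were chosen with earlier results of these data known. Alternatives were RLE scaling, other filters, DESeq2 1.42.0, other sample sets, rrn- genes kept, a replicate block, a length trend removed by lowess, and each library left out.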

Additional observations from a re-analysis of the deposited data

Results flagged for a closer look

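For the genes below, the change from day 1 to day 5 differed between rotenone and DMSO by the test of the difference itself (edgeR interaction, adjusted p under 0.05). Values are the log2 change on rotenone minus that on DMSO. The change was higher on rotenone for dod-23 (1.65), dhs-26 (1.49), F30H5.3 (1.36), cyp-35A3 (1.32), cpr-5 (1.13), T22B7.7 (1.12), C30G12.2 (1.03) and clec-66 (0.88). It was lower on rotenone for the cuticle collagens rol-1 (-5.16), col-49 (-4.76), col-175 (-4.68), col-63 (-4.36), bli-6 (-4.14), col-138 (-4.09) and col-88 (-4.03), and for Y47D7A.15 (-2.94), F22B5.4 (-2.58), dod-3 (-1.86) and lys-7 (-1.27). As given above, the calls of cyp-35A3, C30G12.2, clec-66, col-88 and Y47D7A.15 were lost when certain single libraries were left out. That of F30H5.3 was lost without the length trend, and that of Y47D7A.15 also by DESeq2.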

How the results depend on the processing

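The count of genes changed between day 5 and day 1 on rotenone, 10585, lay between 7802 (a mean of at least 50 counts) and 11518 (without DMSO day 10 replicate 1) under the 10 alternatives, and between 9452 and 9884 when a rotenone library was left out, with 3973 to 4438 higher and 5300 to 5592 lower. On DMSO leaving out a library gave 8244 to 8667. Whether the replicate numbers pair the samples was not settled. Same-numbered libraries of the 2 rotenone ages correlated at -0.02, -0.04 and 0.06. Between rotenone and DMSO these correlations were 0.06, 0.03 and 0.16 at day 5 and 0.04, 0.12 and 0.05 at day 1. Between the DMSO ages they were -0.03, 0.16 and 0.14. Differently numbered libraries ran from -0.19 to 0.14. With the replicate block 10785 genes were called. Of 192 called genes that the naming rule picked, 171 kept call and direction in every alternative that tested them, and pas-1, a proteasome subunit (-0.19), reversed to 0.06 without the length trend, with and without the block.

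The count of differences between treatments was the least stable. Against 60 (12 higher, 48 lower) it was 594 with no filter (359 and 235), 170 by DESeq2 (42 and 128), 1053 with only the groups compared (523 and 530) and 837 without DMSO day 10 replicate 1 (582 and 255); the cause was not tested. Leaving out a library of the 4 groups gave 31 to 58. The higher count was 20 with the replicate block and the length trend removed together, an alternative chosen after seeing the data. Over all left-out libraries the higher count ran from 6 to 582 and the lower from 25 to 255. Depth limits the weakest genes: 61 called genes averaged under 3 counts over the 6 libraries.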
